A study of Arabidopsis thaliana with 12 samples.

Results

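The genes described here are 48 nuclear genes of *Arabidopsis thaliana* that encode the photosynthetic apparatus of the chloroplast. They were listed by function: the light-harvesting proteins of both photosystems, the subunits of photosystem I and photosystem II, the Rieske protein, plastocyanin, the small subunits of Rubisco and Rubisco activase. Of the 48 genes, 43 had a row among the 19802 genes of the expression table. LHCB1.1 (AT1G29920), LHCB1.4 (AT2G34430), LHCB2.2 (AT2G05070), LHCB2.3 (AT3G27690) and PETE1 (AT1G76100) had no row and were not analysed here. A gene entered the table when at least 1 library reached 1 CPM, the read count of a gene scaled to the size of its library.

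The RNA came from roots of seedlings grown for 7 days on agar plates, pooled within each library. The wild type was Col-0, and CRR OE was a line of the same ecotype that expresses a fusion of CRR with GFP from the constitutive CaMV 35S promoter, which is active in most tissues and is not restricted to the cells that normally express CRR. Each line was grown with 1 mM phosphate (+Pi) or with no phosphate added to the medium (–Pi), which gave 4 groups of 3 libraries. The table held 1 mean per group, in log2 CPM, and no value per library. A difference between group means therefore carries no error and no test here, and none of the differences given below is shown to exceed the spread between libraries. Differences are called lower or higher, as a description, from an absolute size of 0.5 on the log2 scale.

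CRR (AT3G25290) itself had means of 5.96, 5.95, 12.7 and 12.72 log2 CPM in Col-0 +Pi, Col-0 –Pi, CRR OE +Pi and CRR OE –Pi, which matched the labels of both lines. All other sets of 4 means below follow the same order of groups. Against the label of the tissue, all 12 root markers had a row, with PYK10, an endoplasmic reticulum body β-glucosidase of roots, at 13.59, 13.13, 13.72 and 13.36 log2 CPM. Of 19 shoot markers, 7 had a row, and the stomatal regulators SPCH, MUTE and FAMA and the shoot meristem genes STM, CLV3 and WUS were among the 12 without one. The summed level of the 7 shoot markers was 121, 136, 114 and 122 CPM, and that of the 12 root markers was 12615, 9407, 13858 and 10963 CPM. FDH, at 5.58, 5.72, 5.59 and 5.53 log2 CPM, and PDF1, at 5.8, 6.02, 5.66 and 5.88, carry most of the shoot sum. That sum therefore follows these genes and is no measure of shoot RNA. PYK10 carries nearly all of the root sum, and the other 11 root markers summed to 315, 425, 332 and 444 CPM, with the higher sum in –Pi in both lines. The root hair genes EXPA7, COBL9 and RHD6 had the largest –Pi minus +Pi differences of the 11 in both lines. In Col-0 these were 1.25, 0.90 and 0.77, whereas SCR, SHR, CASP1 and CASP2 lay between 0.0007 and 0.073. The myrosinase genes TGG1 and TGG2, which mark guard cells and myrosin cells of the shoot, had the lowest value that the table holds in both Col-0 groups.

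In leaves, light-harvesting proteins collect light for the photosystems, photosystem II takes electrons from water, and the cytochrome b6f complex and plastocyanin carry them to photosystem I. Rubisco then fixes carbon dioxide with the help of Rubisco activase. Roots hold mostly non-green plastids and express the nuclear genes of this apparatus at low levels, and light, cytokinin, auxin and the GLK and HY5 transcription factors are known to set how far root plastids green. Low phosphate is known to lower the expression of photosynthesis genes in Arabidopsis.

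The promoter windows of 4 members are printed because these genes anchor the results. LHCB1.5, PETE2 and PSBR have Col-0 –Pi means under their +Pi means by at least 1 on the log2 scale. LHCB1.3 is an antenna gene whose –Pi mean is not under its +Pi mean. Each window holds 250 bases before and 50 bases from the annotated start of the gene, from the RefSeq sequence of the TAIR10.1 assembly, on the strand of the gene. Capitals mark matches, on either strand, to 5 short motifs: CACGTG (the G-box bound by bZIP and bHLH factors such as HY5 and the PIFs), GATAAG (the I-box), CCAATC (found in genes that respond to GLK factors), AAAATATCT (the evening element) and GNATATNC (the P1BS element bound by PHR1, the regulator of phosphate starvation genes). LHCB1.5 lies at chr2:14523519-14523818 on the minus strand, with 1 CCAATC.
LHCB1.5: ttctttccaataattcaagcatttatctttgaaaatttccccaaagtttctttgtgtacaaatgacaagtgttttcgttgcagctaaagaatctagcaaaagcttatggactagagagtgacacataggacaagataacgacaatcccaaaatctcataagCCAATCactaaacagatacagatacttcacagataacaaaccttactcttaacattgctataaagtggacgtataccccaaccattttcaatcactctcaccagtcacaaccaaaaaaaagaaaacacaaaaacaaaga
PETE2 lies at chr1:7043343-7043642 on the minus strand, with the reverse complement of GATAAG and with CCAATC.
PETE2: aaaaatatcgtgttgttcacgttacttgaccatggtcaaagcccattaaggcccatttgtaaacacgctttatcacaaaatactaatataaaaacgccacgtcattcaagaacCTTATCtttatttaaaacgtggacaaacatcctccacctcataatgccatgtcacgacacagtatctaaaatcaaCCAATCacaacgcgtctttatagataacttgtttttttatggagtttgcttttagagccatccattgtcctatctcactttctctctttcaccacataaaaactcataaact
PSBR lies at chr1:29735702-29736001 on the plus strand, with CACGTG and GNATATNC.
PSBR: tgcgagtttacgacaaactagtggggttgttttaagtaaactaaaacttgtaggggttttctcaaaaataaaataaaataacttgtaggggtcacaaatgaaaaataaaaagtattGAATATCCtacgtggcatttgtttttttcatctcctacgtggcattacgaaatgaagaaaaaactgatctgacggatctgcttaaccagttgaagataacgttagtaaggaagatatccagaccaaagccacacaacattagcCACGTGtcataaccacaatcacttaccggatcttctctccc
LHCB1.3 lies at chr1:10477635-10477934 on the plus strand, with 1 CCAATC.
LHCB1.3: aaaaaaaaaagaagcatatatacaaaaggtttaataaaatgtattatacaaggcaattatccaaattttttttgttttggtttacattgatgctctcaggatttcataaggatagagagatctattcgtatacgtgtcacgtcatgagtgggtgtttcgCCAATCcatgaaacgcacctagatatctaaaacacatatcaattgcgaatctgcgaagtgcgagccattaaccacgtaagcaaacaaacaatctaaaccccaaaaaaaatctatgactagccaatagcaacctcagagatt

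All 43 members matched a RefSeq gene with the same start and end as in the deposited table. CACGTG was found in the windows of 14 of the 43 members (32.6%), against 8.57% of the windows of 19784 nuclear genes of the table. GATAAG was found in 22 members (51.2%) against 14.4%, and CCAATC in 16 members (37.2%) against 12.8%. The photosystem II genes held CACGTG in 6 of 10 windows, among them both copies of PSBO and both of PSBQ, and the photosystem I genes held GATAAG in 8 of 12. AAAATATCT was in 0 of the 43 windows against 2.90% of all windows. GNATATNC was in 1 member, PSBR, which is 2.33% against 6.32% of all windows. These matches describe the letters of the windows and were not tested as binding sites.

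Per kilobase of exon, the highest levels among the 43 members, as the mean of the 4 groups, were those of PSBR (AT1G79040), which helps to assemble the oxygen-evolving complex, at 5.12 log2 CPM per kilobase, and of LHCB1.5 (AT2G34420), a major antenna protein that the table names LHB1B2, at 5.02. PSBX (AT2G06520), a small membrane subunit of photosystem II, followed at 4.46, then PSBO1 at 4.36 and LHCA4 at 4.35. These neighbours lie close together and cannot be ranked beyond their spread, which is not known. At the other end, RBCS1B, RBCS3B and RBCS2B stood at -4.47, -3.69 and -3.28, far under the fourth small subunit gene, RBCS1A, at 3.21. Of the 43 members, 35 had a mean over the 4 groups of at least 1 log2 CPM, as did 17997 genes of the table.

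**Figure D1:**
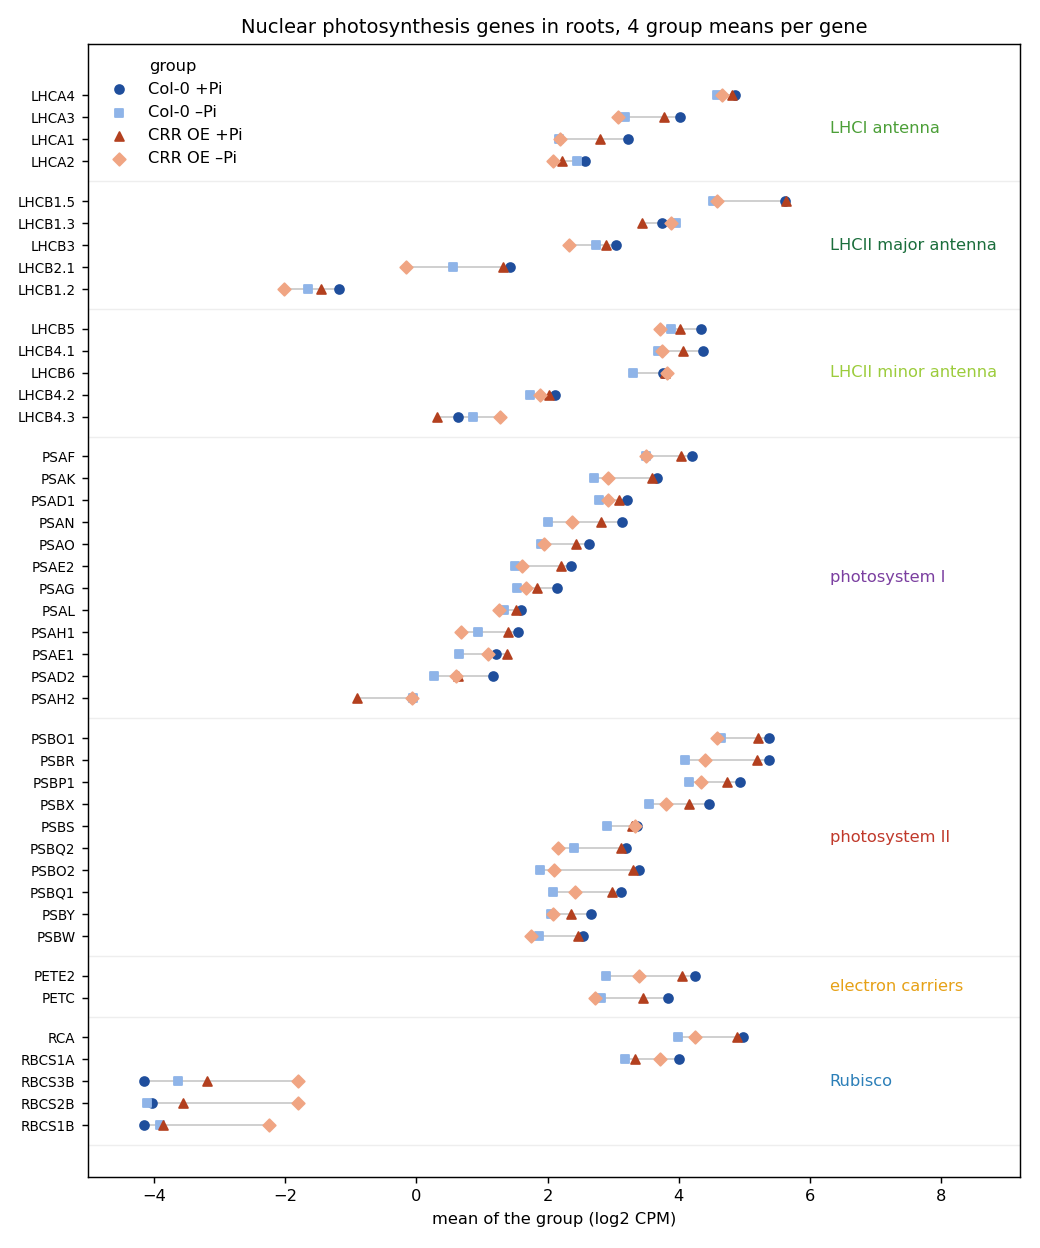
Mean of each group in log2 CPM (horizontal axis) for the 43 members, grouped by function and ordered by mean level within each group; each symbol is 1 mean of 3 libraries and carries no error. In photosystem II the light blue squares and light orange diamonds, the –Pi groups, lie to the left of the +Pi symbols for 9 of the 10 genes in both lines, with PSBS the exception in CRR OE.

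The first comparison asks how the genes stood in roots of Col-0 without added phosphate. Most of them were lower in –Pi: 27 of the 43 members were lower by at least 0.5 and 1 was higher, where 7.68% of all genes of the table were lower and 8.48% higher. The median difference over the 43 members, –Pi minus +Pi, was -0.69 on the log2 scale, with a range from -1.5 to 0.53, beside a median of -0.02 over all genes. A mean below that of +Pi, of any size, was found for 38 members, or 88.4%, beside 53.9% of all genes. The 43 members together summed to 538 CPM in Col-0 +Pi and 319 CPM in Col-0 –Pi, a ratio of 0.592. In whole roots, fewer cells that express these genes and less RNA per cell cannot be told apart. The sum of the shoot markers, carried mostly by FDH and PDF1, stood at 121 CPM in Col-0 +Pi and 136 CPM in Col-0 –Pi. As stated above, that sum is no measure of shoot RNA, so no conclusion is drawn from it here. The part of shoot RNA in the levels of the members was not tested.

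The 8 members with a difference of at least 1 in Col-0 were PSBO2, PETE2, PSBR, PSAN, LHCB1.5, LHCA1, PSBQ1 and PETC, at a threshold that 2% of all genes passed downwards. They span both photosystems, both antennae and the electron carriers, so that no single complex held them.

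In CRR OE the same question gave fewer lower genes, among the members and also over all genes, where the share was 4.24% against 7.68% in Col-0. Of the 43 members, 19 were lower in –Pi by at least 0.5 and 5 were higher, beside 4.24% and 6.73% of all genes. The median difference was -0.41, with a range from -1.47 to 1.75, beside -0.01 over all genes. The 5 include RBCS1B, RBCS2B and RBCS3B, whose higher mean in CRR OE –Pi the filter fixed, as described below. The count of 5 is therefore not to be read against the share of all genes, and RBCS2B sets the top of the range. With a mean of at least 1 log2 CPM, 17 of 35 members were lower and 0 higher, beside 3.19% and 5.16% of all such genes. The median of these 35 members was -0.50. The summed level of all 43 members was 476 CPM in CRR OE +Pi and 345 CPM in CRR OE –Pi, a ratio of 0.725. By at least 1, 3 members were lower, LHCB2.1, PSBO2 and LHCB1.5, where 0.853% of all genes were as low.

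**Figure D2:**
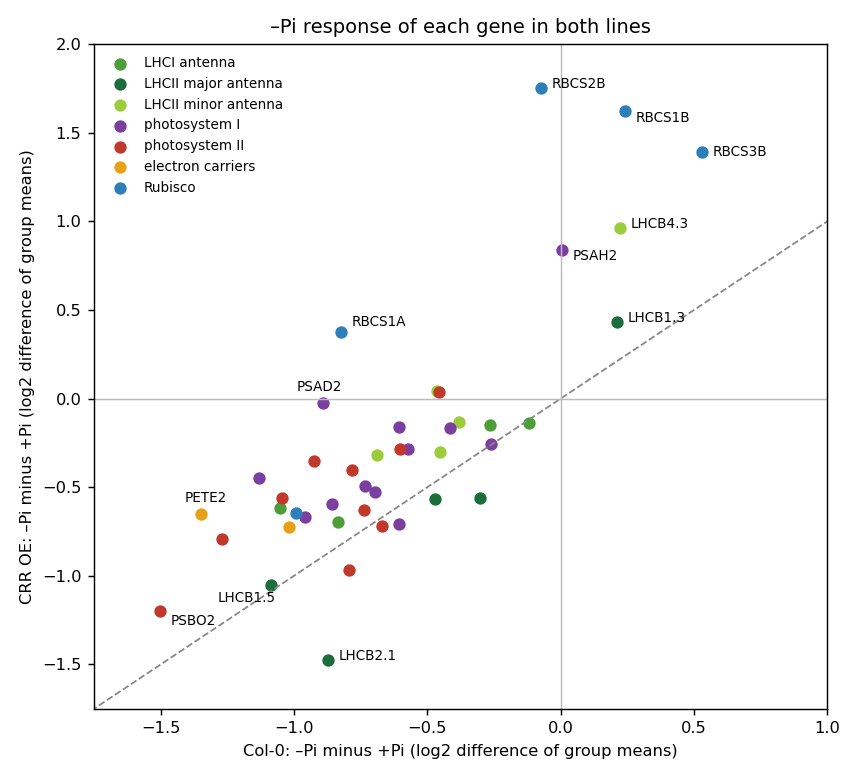
The –Pi minus +Pi difference of group means (log2) of each of the 43 members in Col-0 (horizontal) and CRR OE (vertical), coloured by function; the dashed line marks equal differences and no point carries an error. Most points lie in the lower left and above the dashed line, PSBO2 has the lowest value in Col-0 and LHCB2.1 in CRR OE, and 3 RBCS copies lie at the top.

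Both lines had 17 members lower in –Pi by at least 0.5, which is 63.0% of the 27 in Col-0 and 89.5% of the 19 in CRR OE. Among all genes, 543 were lower in both lines, which is 35.7% of the 1521 in Col-0 and 64.7% of the 839 in CRR OE. Another 10 passed the threshold in Col-0 alone: LHCB4.1, PSAD2, PSAE1, PSAG, PSAN, PSAO, PSBP1, PSBX, PSBY and RBCS1A. Of these 10, PSAO lay next to the threshold in CRR OE, at -0.496, and RBCS1A lay on the other side of 0, at 0.38. LHCB1.2 and LHCB3 passed it in CRR OE alone. The differences of both lines, which share no group, had a Pearson correlation of 0.79 across the 43 members, 0.70 across the 35 members with a mean of at least 1 log2 CPM and 0.85 across all 19802 genes. The 43 include RBCS1B, RBCS2B and RBCS3B, whose higher mean in CRR OE –Pi the filter fixed, as described below. The value of 0.79 is therefore not to be read against that of all genes. None of these RBCS copies is among the 35. Genes are not independent replicates, and the correlation describes these means.

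The antenna of photosystem I is made of LHCA1 to LHCA4, which bind chlorophyll as heterodimers on one side of the reaction centre. All 4 genes had lower means in –Pi in both lines, and 2 of them, LHCA1 and LHCA3, were lower by at least 0.5 in each line. For this and the lists that follow, 7.68% of all genes were lower and 8.48% higher in Col-0 –Pi. In CRR OE –Pi the shares of all genes were 4.24% and 6.73%. LHCA1 (AT3G54890) had means of 3.22, 2.17, 2.8 and 2.18 log2 CPM. Its –Pi minus +Pi difference was -1.05 in Col-0 compared with -0.62 in CRR OE, with nearly equal –Pi means in the lines. LHCA3 (AT1G61520) had means of 4.02, 3.18, 3.77 and 3.08. LHCA4 (AT3G47470) was the highest of the 4, at 4.85, 4.59, 4.81 and 4.66, and differed least from group to group. LHCA2 (AT3G61470), the lowest by mean, stood at 2.57, 2.45, 2.22 and 2.08, with both CRR OE means under both Col-0 means.

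The major antenna of photosystem II is a trimer of LHCB1, LHCB2 and LHCB3 proteins, and 5 of its 9 listed genes had a row. Here 2 genes were lower in –Pi by at least 0.5 in Col-0 and 4 in CRR OE. LHCB1.5 had the highest mean of the 5 and nearly the same pair of levels in both lines, at 5.61, 4.52, 5.63 and 4.58 log2 CPM, with –Pi minus +Pi differences of -1.09 and -1.05. LHCB2.1 (AT2G05100) had means of 1.43, 0.55, 1.32 and -0.15. Its difference was -0.87 in Col-0 against -1.47 in CRR OE, the lowest of any member in that line. LHCB3 (AT5G54270), which joins LHCB1 in one class of trimers, stood at 3.04, 2.74, 2.89 and 2.33. The pattern was not shared by LHCB1.3 (AT1G29930), also known as CAB1, at 3.75, 3.96, 3.44 and 3.87, whose –Pi mean was the higher one in both lines, by 0.21 in Col-0 compared with 0.43 in CRR OE. LHCB1.2 (AT1G29910), which the table lists under the name LHCB1.1 and RefSeq under CAB3, was at -1.18, -1.65, -1.45 and -2.02, under 1 CPM in every group mean.

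The LHCB1 copies are close in sequence, and reads that match several copies cannot be assigned with confidence. Over the coding sequence, LHCB1.2 and LHCB1.3 were identical at 96.4% of positions and LHCB1.1 and LHCB1.3 at 96.1%, with an identical exon stretch of 119 bases in the latter pair. LHCB1.4 and LHCB1.5 were identical at 91.4%, with a stretch of 122 bases, and LHCB2.1 shared one of 152 bases with LHCB2.2. The values of these genes are therefore uncertain as values of single copies. The first 60 coding bases, from the RefSeq sequence of TAIR10.1, show how few positions separate the copies. Capitals mark the bases that differ from LHCB1.3, which are 5 in LHCB1.1, 5 in LHCB1.2 and 9 in LHCB1.5.
LHCB1.3: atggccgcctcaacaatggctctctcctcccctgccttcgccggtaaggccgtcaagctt
LHCB1.1: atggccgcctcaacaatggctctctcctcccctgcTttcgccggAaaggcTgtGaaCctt
LHCB1.2: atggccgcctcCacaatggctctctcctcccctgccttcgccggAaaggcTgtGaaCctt
LHCB1.5: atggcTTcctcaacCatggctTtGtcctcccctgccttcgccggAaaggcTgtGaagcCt

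The minor antenna of photosystem II, LHCB4, LHCB5 and LHCB6, links the trimers to the core as single proteins. Of its 5 genes, 1 was lower in Col-0 –Pi by at least 0.5 and 0 in CRR OE –Pi, where 1 was higher. Over all genes, 7.68% were lower in Col-0 –Pi, and 4.24% lower and 6.73% higher in CRR OE –Pi. Counts this small among 5 genes are not read as a trait of the minor antenna. The gene lower in Col-0 was LHCB4.1 (AT5G01530), with means of 4.37, 3.68, 4.06 and 3.74 log2 CPM. LHCB5 (AT4G10340), the highest by mean, stood at 4.33, 3.88, 4.02 and 3.72, and LHCB4.2 (AT3G08940), at 2.11, 1.73, 2.02 and 1.89, had a –Pi minus +Pi difference of -0.38 in Col-0 against -0.13 in CRR OE. LHCB6 (AT1G15820) had means of 3.76, 3.29, 3.78 and 3.82, so that its Col-0 –Pi mean stood apart from the other 3. LHCB4.3 (AT2G40100), a paralog also called LHCB8, was the only minor antenna gene with a higher mean in –Pi in both lines, at 0.64, 0.86, 0.31 and 1.27, with differences of 0.22 and 0.96. Its level was under 3 CPM in every group mean.

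Photosystem I subunits gave 9 of 12 genes lower in –Pi by at least 0.5 in Col-0, and 4 of 12 lower with 1 higher in CRR OE. The medians were -0.65 in Col-0 and -0.37 in CRR OE. PSAF (AT1G31330), a subunit at the docking site of plastocyanin, was the highest of the 12 by mean, at 4.2, 3.5, 4.03 and 3.5 log2 CPM. PSAN (AT5G64040), a lumenal subunit on the same side, had means of 3.14, 2.01, 2.81 and 2.37 and the lowest difference of the 12 in Col-0, -1.13, against -0.45 in CRR OE. PSAK (AT1G30380), a membrane subunit beside the antenna, stood at 3.67, 2.71, 3.59 and 2.92. In all 3 genes both –Pi means lay under both +Pi means, and the –Pi means of PSAF were nearly equal.

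On the stromal side, where ferredoxin docks, the PSAD and PSAE subunits are each encoded by a pair of genes. PSAD1 (AT4G02770) had means of 3.2, 2.79, 3.09 and 2.92 log2 CPM, and PSAD2 (AT1G03130) had means of 1.17, 0.28, 0.63 and 0.6. For PSAD2 the Col-0 +Pi mean stood above the other 3, so that the difference was -0.89 in Col-0 compared with -0.028 in CRR OE. PSAE1 (AT4G28750), at 1.22, 0.65, 1.38 and 1.09, and PSAE2 (AT2G20260), at 2.36, 1.5, 2.2 and 1.61, both had their lowest mean in Col-0 –Pi. The coding identity was 86.3% for the PSAD pair and 77.3% for the PSAE pair, with identical stretches of at most 35 and 22 bases.

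PSAH, PSAL and PSAO form the face of photosystem I where the mobile part of the photosystem II antenna docks. PSAH1 (AT3G16140), at 1.55, 0.94, 1.39 and 0.68 log2 CPM, and PSAO (AT1G08380), at 2.63, 1.9, 2.44 and 1.94, had –Pi minus +Pi differences of -0.61 and -0.74 in Col-0. PSAL (AT4G12800) had means of 1.6, 1.34, 1.52 and 1.26 and passed the threshold in neither line. PSAH2 (AT1G52230) stood apart, at -0.06, -0.06, -0.91 and -0.07, with 3 nearly equal means and a lower one in CRR OE +Pi. This low +Pi mean gave PSAH2 a –Pi minus +Pi difference of 0.84 in CRR OE, although its CRR OE –Pi mean was no higher than those of Col-0. PSAG (AT1G55670), a membrane subunit related to PSAK, had means of 2.15, 1.54, 1.83 and 1.67.

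The photosystem II subunits shared 1 direction in Col-0, since all 10 had a lower mean in Col-0 –Pi, and 9 of them were lower by at least 0.5, with a median of -0.79. In CRR OE, 6 of 10 passed the threshold, with a median of -0.59. The summed level of the 10 genes was 186 CPM in Col-0 +Pi, 99.9 CPM in Col-0 –Pi, 165 CPM in CRR OE +Pi and 111 CPM in CRR OE –Pi. The extrinsic proteins of the oxygen-evolving complex, which hold and shield the manganese cluster, ranged widely. PSBO2 and PSBQ1 differed by at least 1 in Col-0, whereas PSBO1, PSBP1 and PSBQ2 lay between -0.79 and -0.74, close to the median of the 10 genes.

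PSBO2 (AT3G50820), the minor copy of the manganese-stabilising protein in leaves, had means of 3.39, 1.89, 3.3 and 2.1 log2 CPM, or 10.5, 3.7, 9.87 and 4.3 CPM. Its difference was -1.5 in Col-0, the lowest of the 43 members, and -1.2 in CRR OE. PSBO1 (AT5G66570), the major copy, had means of 5.38, 4.64, 5.21 and 4.58, with differences of -0.74 and -0.63. Both copies thus had –Pi means under their +Pi means in each line, with the larger difference in the copy of lower level. Their coding sequences were identical at 83.6% of positions, with no identical stretch over 32 bases.

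The partner proteins PSBP and PSBQ were also lower in Col-0 –Pi. PSBP1 (AT1G06680) had means of 4.93, 4.15, 4.74 and 4.33 log2 CPM. PSBQ1 (AT4G21280), at 3.12, 2.08, 2.98 and 2.42, and PSBQ2 (AT4G05180), at 3.2, 2.41, 3.12 and 2.15, differed in which line had the lower –Pi mean, which was Col-0 for PSBQ1 and CRR OE for PSBQ2. PSBR had means of 5.37, 4.1, 5.19 and 4.4, or 41.4, 17.2, 36.6 and 21.1 CPM. The –Pi minus +Pi difference of PSBR was -1.27 in Col-0 against -0.79 in CRR OE.

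Among the small membrane subunits, PSBX had means of 4.46, 3.54, 4.15 and 3.8 log2 CPM, and its difference was -0.93 in Col-0 against -0.35 in CRR OE. PSBY (AT1G67740) stood at 2.66, 2.05, 2.36 and 2.08. PSBW (AT2G30570), which stabilises the contact of the core with its antenna, stood at 2.54, 1.86, 2.47 and 1.75, with nearly equal differences in the lines. PSBS (AT1G44575), the sensor of lumen acidity for the dissipation of excess light, was the exception among the 10, at 3.36, 2.91, 3.29 and 3.32, with a difference of -0.45 in Col-0 compared with 0.036 in CRR OE.

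Both electron carriers with a row were lower in –Pi in both lines. PETC (AT4G03280), the Rieske iron-sulfur protein of the cytochrome b6f complex, had means of 3.84, 2.82, 3.45 and 2.73 log2 CPM, with differences of -1.02 in Col-0 against -0.73 in CRR OE. PETE2 (AT1G20340), the main plastocyanin, a copper protein that the table names DRT112, had means of 4.24, 2.89, 4.04 and 3.39. Its difference was -1.35 in Col-0, next to that of PSBO2 the lowest of all members, and -0.65 in CRR OE. The summed level of both genes was 33.2, 14.5, 27.4 and 17.1 CPM.

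**Figure D3:**
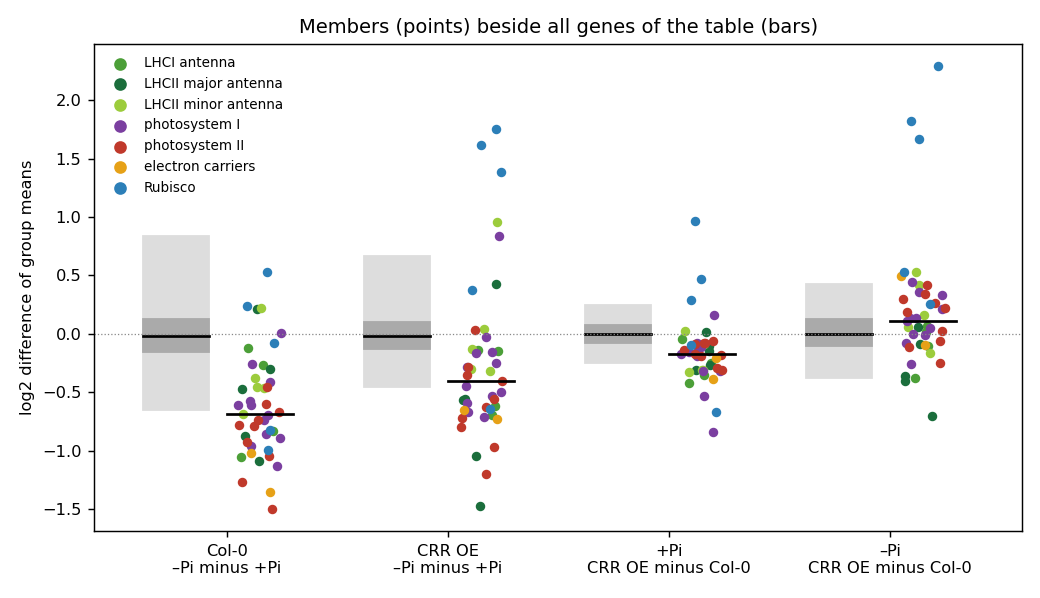
Differences of group means (log2, vertical axis) in 4 comparisons, for the 43 members (points, coloured by function, spread sideways for display) and for all 19802 genes (dark bars hold the middle 50% of the genes, light bars the middle 90%). Black lines mark the medians, which for the members are -0.69, -0.41, -0.17 and 0.11 from left to right and for all genes lie close to 0.

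RCA (AT2G39730), Rubisco activase, followed the photosystem genes, at 4.98, 3.98, 4.89 and 4.24 log2 CPM, with differences of -0.99 in Col-0 compared with -0.65 in CRR OE. RBCS1A (AT1G67090), the small subunit gene with by far the highest level in these roots, had means of 4.0, 3.18, 3.33 and 3.71, or 16.1, 9.08, 10.07 and 13.1 CPM. It was lower in –Pi in Col-0 and not in CRR OE, where the –Pi mean was the higher one by 0.38. Its highest mean was that of Col-0 +Pi and its lowest that of Col-0 –Pi, with both CRR OE means in between.

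The other 3 small subunit genes, RBCS1B (AT5G38430), RBCS2B (AT5G38420) and RBCS3B (AT5G38410), lie next to each other on chromosome 5. RBCS1B had means of -4.15, -3.91, -3.87 and -2.24 log2 CPM, RBCS2B of -4.03, -4.1, -3.56 and -1.81 and RBCS3B of -4.15, -3.63, -3.19 and -1.8. The lowest value of the table is -4.71. In Col-0 +Pi, Col-0 –Pi and CRR OE +Pi all 3 stood between -4.15 and -3.19, and in CRR OE –Pi between -2.24 and -1.80. With 3 libraries, a group mean under -3.14 cannot include a library at 1 CPM, if the filter was applied on the scale of the table. RBCS3B in CRR OE +Pi, at -3.19, lay just under this line. These 3 genes could then have entered the table only through CRR OE –Pi, so that a higher mean there was fixed by the filter and is no result about them. They account for 3 of the 5 members counted as higher in CRR OE –Pi, and the other 2 are LHCB4.3 and PSAH2. At 0.211, 0.286 and 0.287 CPM in CRR OE –Pi, their level was a small share of that of RBCS1A in the same group.

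The 3 genes are also near copies: RBCS1B and RBCS2B were identical at 97.3% of coding positions, and RBCS1B and RBCS3B shared a stretch of 230 identical exon bases. Reads that lie within such a stretch cannot be told apart, so these 3 values are uncertain as values of single genes. RBCS1A was identical to them at 87.7% to 90.1% of positions, with stretches of at most 67 bases. The first 60 coding bases show this, with capitals at the bases that differ from RBCS1B, 3 in RBCS2B, 3 in RBCS3B and 9 in RBCS1A.
RBCS1B: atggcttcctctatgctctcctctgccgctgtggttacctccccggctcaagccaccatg
RBCS2B: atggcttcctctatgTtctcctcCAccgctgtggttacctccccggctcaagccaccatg
RBCS3B: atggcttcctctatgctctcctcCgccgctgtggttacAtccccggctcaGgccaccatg
RBCS1A: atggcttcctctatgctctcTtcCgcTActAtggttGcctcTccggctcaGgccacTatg

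The shoot markers TGG1 and TGG2 had the same form of profile, and the filter fixes their higher mean in CRR OE –Pi in the same way, so that it is no separate result. TGG1 (AT5G26000) had means of -4.71, -4.71, -4.4 and -2.29 log2 CPM and TGG2 (AT5G25980) of -4.71, -4.71, -4.71 and -2.47. The other 5 shoot markers with a row were above 0 log2 CPM in every group, and in –Pi 4 of these 5 were lower in CRR OE than in the wild type. The 4 were ATML1, at -0.44, FDH, at -0.19, PDF1, at -0.15, and HT1, at -0.14, and only CER1, a wax synthesis gene, was higher there, at 0.65. The median of the 5 was -0.15. A count this small among 5 genes is not read as a measure of shoot RNA. Over the whole table, chosen after its values were seen, 9 genes had a mean over -3.14 in CRR OE –Pi alone, 4 in Col-0 –Pi alone and 0 in either +Pi group alone. The 9 were the 3 RBCS copies, TGG1, TGG2, the chloroplast carbonic anhydrase gene BCA1, the chloroplast lipoxygenase gene LOX2, GER3 and AT3G05730. The part of shoot RNA in the RBCS values of CRR OE –Pi was not tested.

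**Figure D4:**
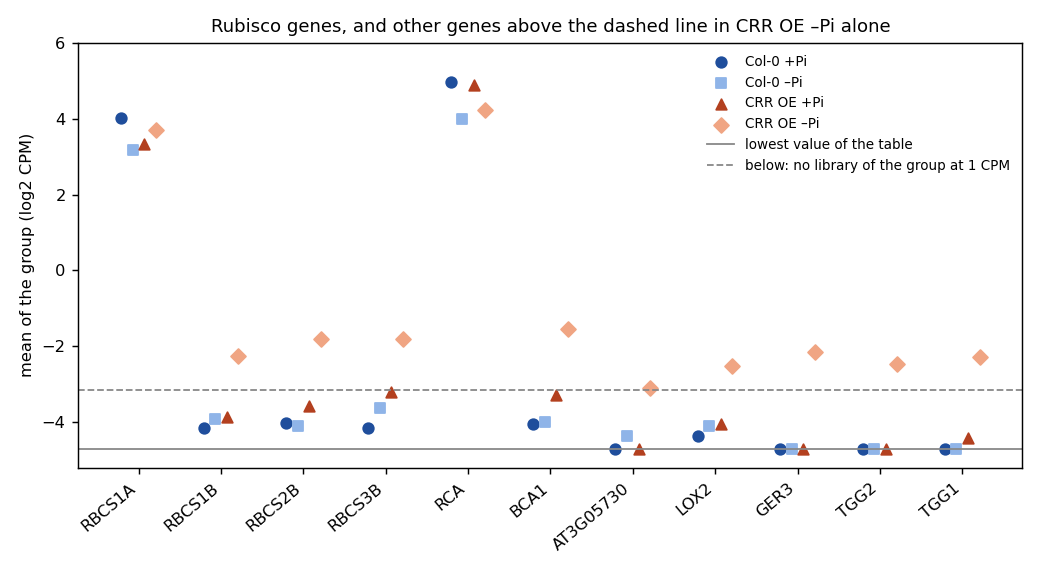
Group means in log2 CPM (vertical axis) of the 5 Rubisco genes among the members and of 6 other genes whose mean passed the dashed line in CRR OE –Pi alone; the solid line is the lowest value of the table, -4.71, and the dashed line, -3.14, is the mean under which no library of a group of 3 can reach 1 CPM. RBCS1A and RCA lie near 4, while RBCS1B, RBCS2B and RBCS3B lie under the dashed line in 3 groups and at -2.24 to -1.80 in CRR OE –Pi.

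The comparison of the lines in +Pi asks what CRR overexpression went with when phosphate was sufficient. Of the 43 members, 37 had their lower mean in CRR OE, or 86.0%, beside 50.1% of all genes. The differences were small, and the median was -0.17 beside -0.0002 over all genes. By at least 0.5, 3 were lower and 1 higher, where 1.17% and 0.975% of all genes passed. The 3 lower genes were PSAH2, RBCS1A and PSAD2, at -0.84, -0.67 and -0.53, and the higher one was RBCS3B, which lay at 0.0562 CPM in Col-0 +Pi and 0.110 CPM in CRR OE +Pi. All 4 LHCI genes and all 10 photosystem II genes had the lower mean in CRR OE, from -0.42 for LHCA1 to -0.048 for LHCA4 and from -0.31 for PSBX to -0.065 for PSBW. LHCB1.5, with a difference of 0.017, LHCB6, with 0.025, and PSAE1, with 0.16, were on the other side of 0, the first pair only until both groups were set to an equal total CPM. The summed level of the 43 members in CRR OE +Pi was 0.884 of that in Col-0 +Pi.

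In –Pi more members had their higher mean in CRR OE than in Col-0. Of the 43, 28 had their higher mean in CRR OE and 15, or 34.9%, their lower mean, beside 49.9% of all genes with a lower mean. The median was 0.11 beside 0.0005 over all genes. The 28 include RBCS1B, RBCS2B and RBCS3B, whose higher mean the filter fixed, so this count is not to be read against the share of all genes. Among the 35 members with a mean of at least 1 log2 CPM, 23 were higher in CRR OE, with a median of 0.068. By at least 0.5, 5 were higher and 1 lower, beside 3.68% and 3.1% of all genes. The 5 were LHCB6, at 0.53, and the RBCS genes RBCS1A, at 0.53, and RBCS1B, RBCS2B and RBCS3B, which the filter selects as described. The lower gene was LHCB2.1, at -0.71. PETE2 lay just short of the threshold, at 0.49, followed by PSAE1 at 0.45, LHCB4.3 at 0.42 and PSBS at 0.41. In the major antenna, LHCB2.1, LHCB3, LHCB1.2 and LHCB1.3 kept a lower mean in CRR OE, from -0.71 to -0.086.

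The difference between the –Pi responses, that of CRR OE minus that of Col-0, is built from all 4 means and shares them with the comparisons above. It was above 0 for 36 members and below 0 for 7, or 16.3%, where 49.1% of all genes were below 0. The median was 0.29 beside 0.0036 over all genes. By at least 0.5, 11 were higher and 1 lower, where 5.04% and 4.05% of all genes passed. The 11 were the RBCS genes RBCS2B, RBCS1B, RBCS1A and RBCS3B, then PSAD2, PSAH2, LHCB4.3, PETE2, PSAN, PSBX and LHCB6, from 1.83 to 0.504. Of these, RBCS1B, RBCS2B and RBCS3B could have entered the table only through CRR OE –Pi and were then not free to vary, so the count of 11 is not to be read against the share of all genes. With a mean of at least 1 log2 CPM, 5 of 35 members were higher, where 3.38% of all such genes were. Apart from these RBCS copies, RBCS1A was the only one past 1, at 1.2. The 1 lower gene was LHCB2.1, at -0.6, and LHCB3, at -0.26, and PSBQ2, at -0.17, followed it. Among the 35 members with a mean of at least 1 log2 CPM the median was also 0.29, and 30 of them lay above 0. Without errors for the means, these values do not show that the responses of the lines differed.

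Other genes of photosynthesis are given for comparison, from whole lists drawn up by function, with earlier results of these data known. Of 19 further thylakoid proteins, 14 were lower in Col-0 –Pi by at least 0.5 and 5 in CRR OE –Pi, with medians of -0.80 and -0.40. PSB27, an assembly factor of photosystem II, was the lowest of them in Col-0, at -1.39, and LHCA5, a rare antenna protein, in CRR OE, at -1.14. ELIP1, a stress-induced relative of the antenna proteins, stood above Col-0 in CRR OE roots, by 0.74 in +Pi and 0.57 in –Pi. Its –Pi minus +Pi differences were 0.096 in Col-0 against -0.071 in CRR OE.

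Chlorophyll synthesis was lower in Col-0 –Pi for 7 of 14 genes and in CRR OE –Pi for 2, with medians of -0.59 and -0.29. CHLM, a methyltransferase of magnesium protoporphyrin, had means of 4.37, 3.09, 4.03 and 3.63 log2 CPM. HEMA1, at the entry of the pathway, had means of 5.67, 5.7, 5.57 and 5.87 and no lower –Pi mean. Of 9 photorespiration genes, 5 were lower in Col-0 –Pi and 4 in CRR OE –Pi, led by AGT1, the peroxisomal serine-glyoxylate aminotransferase, at -2.29 for Col-0 and -2.18 for CRR OE.

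The Calvin cycle list held genes in both directions. Of its 13 genes, 7 were lower and 2 higher in Col-0 –Pi, and 2 lower and 3 higher in CRR OE –Pi. The medians were -0.55 in Col-0 and -0.18 in CRR OE. A lower –Pi mean, of any size, was found for 9 of the 13 in Col-0 and 10 in CRR OE, beside 53.9% of all genes in each line. CP12-1, a regulator of the cycle, had means of 3.77, 2.14, 3.32 and 2.58 log2 CPM, and FBA2, a plastid aldolase, had means of 4.98, 3.55, 4.6 and 3.18. PRK, phosphoribulokinase, stood at 0.17, 1.02, -1.14 and 1.2 and HCEF1, a plastid fructose bisphosphatase, at 0.27, 1.41, -0.12 and 1.3, with the higher means in –Pi in both lines. The summed level of the 13 genes, dominated by genes such as TKL1 and PGK1 that are also used outside photosynthesis, was 744 CPM in Col-0 +Pi and 717 CPM in Col-0 –Pi.

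**Figure D5:**
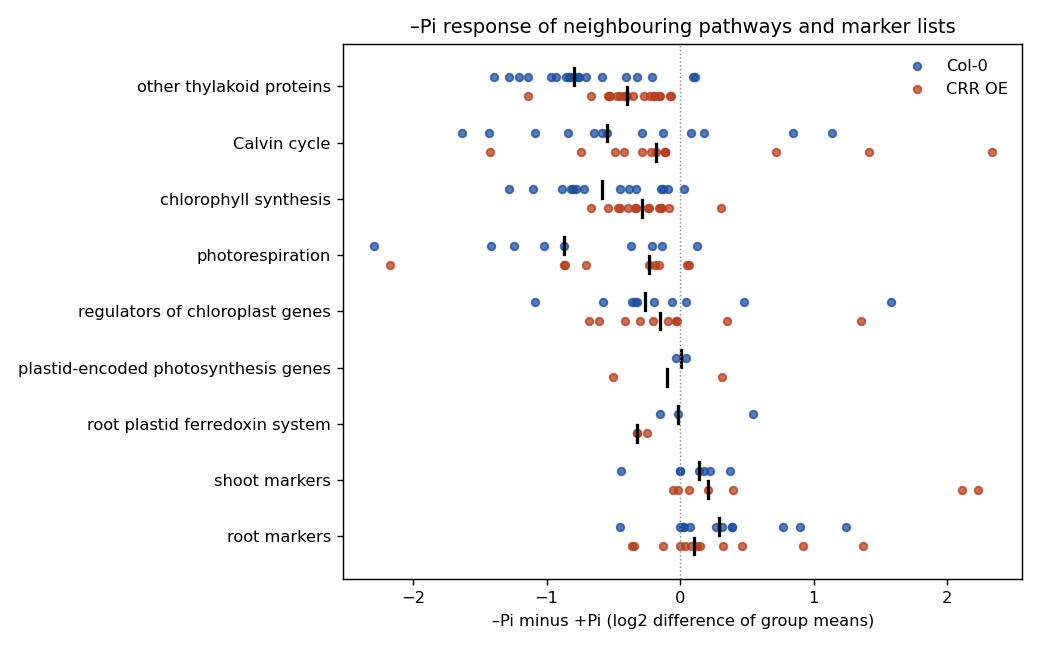
The –Pi minus +Pi difference of group means (log2, horizontal axis) for genes of 9 comparison lists, in Col-0 (blue, upper row of each list) and CRR OE (red, lower row); each point is 1 gene and black ticks are medians. The thylakoid, chlorophyll and photorespiration lists lie mostly left of 0, with medians between -0.87 and -0.59 in Col-0. The root markers lie mostly right of 0. The filter fixed the higher CRR OE –Pi means of the shoot markers TGG1 and TGG2, so their red points are no result. Among the other 5 shoot markers, the blue row has 4 points right of 0 and 1 left, with a median of 0.18. The red row has 3 right and 2 left, with a median of 0.068.

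Of 10 regulators of chloroplast genes with a row, 2 were lower and 1 higher in –Pi by at least 0.5 in each line. A lower –Pi mean, of any size, was found for 7 of the 10 in Col-0 and 8 in CRR OE, beside 53.9% of all genes in each line. The medians were -0.26 and -0.15. SIG6, a sigma factor of the plastid RNA polymerase, had means of 3.87, 2.79, 3.75 and 3.07 log2 CPM, and PIF3, a bHLH factor that represses greening, had means of 1.9, 3.48, 2.02 and 3.38. GLK2, which promotes chloroplast development, also in roots, had means of 1.99, 1.64, 2.21 and 2.56, with its highest mean in CRR OE –Pi. GLK1 had means of -0.79, -0.31, -0.13 and -0.54, and HY5 had means of 4.16, 3.96, 4.22 and 4.19. For the non-photosynthetic route of electrons in root plastids, RFNR2, a root ferredoxin-NADP reductase, stood at 8.38, 8.92, 8.6 and 8.35 and FD3, a root ferredoxin, at 8.09, 7.94, 8.15 and 7.83. Neither was lower in Col-0 –Pi by 0.5, and RFNR2 was higher there, at 0.54. The –Pi minus +Pi difference of FD3 was -0.15 in Col-0. In CRR OE the differences were -0.25 for RFNR2 and -0.32 for FD3. Of 11 photosynthesis genes of the plastid genome, 2 had a row, PSAA and PSAB, both under 1 CPM in every group mean.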

How the data were processed

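Root RNA of both lines, each in +Pi and –Pi, was sequenced in 3 libraries per group, 12 in all. Per the methods and the submitters' processing notes, the authors used Cutadapt 1.8 for trimming, filters for ribosomal and low-complexity sequence, STAR 2.5.3a with TAIR10 for alignment and htseq-count 0.9.1 for counting per gene. Genes under 1 CPM in every library were dropped. The authors normalised by TMM and obtained log2 CPM from edgeR 3.24.3 in R 3.5.3. The notes also name RSEM 1.2.31. The deposited log2 CPM table gives each of 19802 genes a mean for every group, and was used as deposited. The labels name a column kit for the extraction of RNA and the methods a phenol reagent. The 5 deposited tables of the authors' own comparisons hold log2 fold changes, fold changes, p-values, adjusted p-values and F statistics, and were not used. The methods state a minimum read number per library, but the table of group means holds no counts, so no counting interval was computed. Columns of other samples numbered 0.

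Differences of group means were taken with pandas 2.3.3 and numpy 2.4.6 in Python 3.11.15 and compared with those of all genes. They were checked on simulated data. The threshold was 0.5 on the log2 scale. A linear CPM given for a gene is the group mean raised from log2, and summed levels add these over a list. Levels per kilobase used the exons of RefSeq TAIR10.1, in which 19781 of 19783 matched genes had the start and end of the table. Coding sequences were aligned with Biopython 1.88, and figures drawn with matplotlib 3.10.9. Alternatives were thresholds of 1 and 0.25, 1 CPM added, centring on the median of all genes, equal total CPM, members with a mean of at least 1 log2 CPM only, and members without near-identical paralogs. The last of these left out LHCB1.2, LHCB1.3, LHCB2.1, RBCS1B, RBCS2B and RBCS3B. It kept LHCB1.5, although that gene shares a long identical stretch with LHCB1.4. In each list, the genes named were those with the highest and lowest mean, those with the largest differences in either direction, and all copies of paralog sets. The other members and HEMA1, HY5, FD3, GLK1 and the genes above the floor in 1 group were added after their values were seen. The promoter sequence of 1 further member is not reported here. The members and lists were chosen with earlier results of these data known.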

Additional observations from a re-analysis of the deposited data

How the results depend on the processing

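No paired analysis was possible because the table holds 1 mean per group and no column per library, and for the same reason no library could be left out. In Col-0, the members lower in –Pi went from 27 to 8 at a threshold of 1, and the 1 higher member, RBCS3B, was lost (0) at a threshold of 1, with 1 CPM added, with equal total CPM, with a mean of at least 1 log2 CPM and without near-identical paralogs. The Col-0 median moved from -0.69 to -0.55 with 1 CPM added, which by construction shrinks the differences of low genes. In CRR OE, the lower members went from 19 to 3 at a threshold of 1, and the higher from 5 to 3 at a threshold of 1, to 1 with 1 CPM added, to 0 with a mean of at least 1 log2 CPM and to 2 without near-identical paralogs. Between the lines in +Pi, the lower members went from 3 to 0 at a threshold of 1, 15 at 0.25, 1 with 1 CPM added and 1 with a mean of at least 1 log2 CPM. The 1 higher member became 0 at a threshold of 1, 3 at 0.25, and 0 under each of those other alternatives and without paralogs. In –Pi, the 1 lower member became 0 at a threshold of 1, 6 at 0.25 and 0 with 1 CPM added, with a mean of at least 1 log2 CPM and without paralogs. The 5 higher became 3 at a threshold of 1, 15 at 0.25, 0 with 1 CPM added, 2 with a mean of at least 1 log2 CPM and 2 without paralogs. For the difference of the responses, the 1 lower member became 0 at a threshold of 1, 2 at 0.25 and 0 with 1 CPM added, with a mean of at least 1 log2 CPM and without paralogs, and the 11 higher became 3 at a threshold of 1, 26 at 0.25, 5 with 1 CPM added and 5 with a mean of at least 1 log2 CPM. Centring and equal total CPM moved the median difference of all genes by between -0.0348 and 0.0182, and 0 of 215 differences of single members changed sign with centring or with 1 CPM added. With equal total CPM 4 changed sign, of PSAH2, LHCB1.5, LHCB6 and LHCA1, none larger than 0.0252 before. With only group means, the precision of every value is unknown.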

Other observations

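Some values outside the comparisons are given without explanation. In Col-0 –Pi alone, 4 genes had a mean over -3.14 log2 CPM, and none of them is a photosynthesis gene: VBF (AT1G56250), at 0.59, AT4G33720, at 0.55, BHLH139 (AT5G43175), at 0.11, and ERF114 (AT5G61890), at -0.13. Among the 9 genes over that mean in CRR OE –Pi alone, BCA1 had the highest mean there, at -1.54 log2 CPM, with -4.05, -4.0 and -3.27 in Col-0 +Pi, Col-0 –Pi and CRR OE +Pi. These sets were picked after their values were seen.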
